A study of Rattus norvegicus with 48 samples.

Results

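The muscle-type microRNAs miR-133a, miR-133b and miR-206 were followed by 6 of the 1063 names in a small RNA-seq table of rat amygdala and ventral striatum. The members were taken by name: the mature forms miR-133a-3p, miR-133b-3p and miR-206-3p, and the precursors mir-133a, mir-133b and mir-133c, with table lines that shared a name summed. No miR-1 name was among the members, and miR-1 is given only as a relative.

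The study asked which microRNAs in these brain regions were altered by prenatal ethanol and by social enrichment. Long Evans dams received ethanol or saline by intraperitoneal injection on gestational day 12, and the offspring were weaned on postnatal day 21. Non-enriched offspring were then housed with same-sex littermates, while socially enriched offspring lived with unfamiliar same-sex rats from untreated dams. All were killed under ketamine and xylazine on day 42, after a social interaction test, so every group shares the handling and the test, and every control rat had a saline-injected mother. The 48 libraries form 8 groups of region, prenatal treatment and housing with 6 libraries each, 3 of females and 3 of males. Each library holds the pooled RNA of 3 rats of one sex, so the spread reported here is between pools and not between animals. Both regions were dissected from the same rats, 24 pools per region, so amygdala and ventral striatum libraries share animals. Which pools of the 2 regions hold the same rats is not given in the sources used here. In such bulk tissue, fewer cells of a type and less RNA per cell cannot be told apart.

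MicroRNAs are short RNAs that guide repression of messenger RNAs, mainly by pairing through their seed, bases 2 to 8 from the 5′ end. miR-1, miR-133 and miR-206 are known as myomiRs: they are abundant in heart or skeletal muscle, where miR-1 and miR-206 promote differentiation of muscle cells and the miR-133 forms influence proliferation. They are transcribed as pairs, miR-1 with miR-133a and miR-206 with miR-133b. In brain they are scarce, and miR-133b has been described in midbrain dopamine neurons, whose axons reach the ventral striatum.

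The mature sequences are shown because the family falls into a pair of seeds, and because one of the separations that the results rest on is a single base. They come from RefSeq, build GRCr8, which holds an entry for each of the 3 mature members. Capitals mark the seed.
miR-133a-3p: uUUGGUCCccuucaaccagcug
miR-133b-3p: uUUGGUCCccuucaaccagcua
miR-206-3p: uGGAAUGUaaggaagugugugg
miR-1-3p: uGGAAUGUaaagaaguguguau
miR-1b: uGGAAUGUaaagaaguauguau

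miR-133a-3p and miR-133b-3p share the seed UUGGUCC and 21 of 22 bases, with G22A as the only difference, counted from the 5′ end of miR-133a-3p. A read that lacks the last base therefore matches both names, and how the upstream counting treated such reads is not given in the sources used here. miR-206-3p shares the seed GGAAUGU with miR-1-3p, from which it differs by A11G, A21G and U22G, and miR-1b differs from miR-1-3p by G17A.

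The hairpins of miR-206 and miR-133b lie on the plus strand of chromosome 9 of GRCr8, at chr9:30590697-30590780 and chr9:30594582-30594665, with 3801 bases between them. The mature forms occupy chr9:30590747-30590768 and chr9:30594629-30594650. Both hairpins are shown, with the mature form in capitals, since the precursor and mature rows of the table count reads on the same molecule.
Mir206: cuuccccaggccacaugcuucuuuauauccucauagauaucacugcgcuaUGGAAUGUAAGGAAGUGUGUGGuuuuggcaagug
Mir133b: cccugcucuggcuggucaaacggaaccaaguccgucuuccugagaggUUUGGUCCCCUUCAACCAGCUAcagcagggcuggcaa

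The table gives reads per 1000000 (RPM), scaled so that mature values and precursor values each add up to 1000000 in a library. Low values are whole multiples of what 1 read is worth, which put the depth at 363141 to 1370413 mature reads per library, with a median of 855220 in amygdala and 1031166 in ventral striatum. A value of 0 allows up to 3 reads, or 2.19 to 8.26 RPM of a mature form depending on the library. Neuronal miR-9a-5p was measured at 21810 to 42730 RPM and miR-124-3p at 1476 to 3249 RPM in the 48 libraries, whereas the red blood cell form miR-451-5p was at 1.98 to 14.95 RPM.

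All members were rare, and they differed in how often they were seen. The mir-133a precursor was read in each of the 48 libraries, at 12.1 to 144 RPM with a median of 38.7 RPM and 2504 reads in all. Mature miR-133a-3p reached 41 of 48 libraries with 220 reads in all and a mean of 4.76 ± 3.62 RPM (SD, n = 48). miR-206-3p was seen in 34 libraries with 78 reads and a mean of 1.86 ± 2.00 RPM.

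miR-133b-3p was seen in 31 libraries with 63 reads and a mean of 1.43 ± 1.35 RPM. No library held more than 6 reads of it. The mir-133b precursor had the same number of reads as miR-133b-3p in all 48 libraries, so the 2 names are 1 measurement. mir-133c did not exceed 4.69e-05 RPM, far below 1 read, and its value was a fixed small fraction of mir-133a (3.25e-07 to 3.27e-07). No difference is given for mir-133c.

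The precursor and mature counts diverged for miR-133a. Of the 2504 reads given to mir-133a, the 222 reads given to its mature forms miR-133a-3p and miR-133a-5p amount to 8.87%, and the library values ran from 0 to 21.7% with a median of 8.96%. The percentage was 8.24% in amygdala and 9.06% in ventral striatum. The mature forms of mir-206 and mir-1b accounted for 92.9% and 95.9% of their precursor reads, and that of mir-133b for all of them. Across the 242 precursors with a mean of at least 10 reads and a mature form in the table the median was 76.3%, and 47 of them lay below mir-133a. Most mir-133a reads were thus not assigned to a listed mature miR-133a, and what these reads are was not examined. mir-133a is kept apart from miR-133a-3p in what follows.

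**Figure D1:**
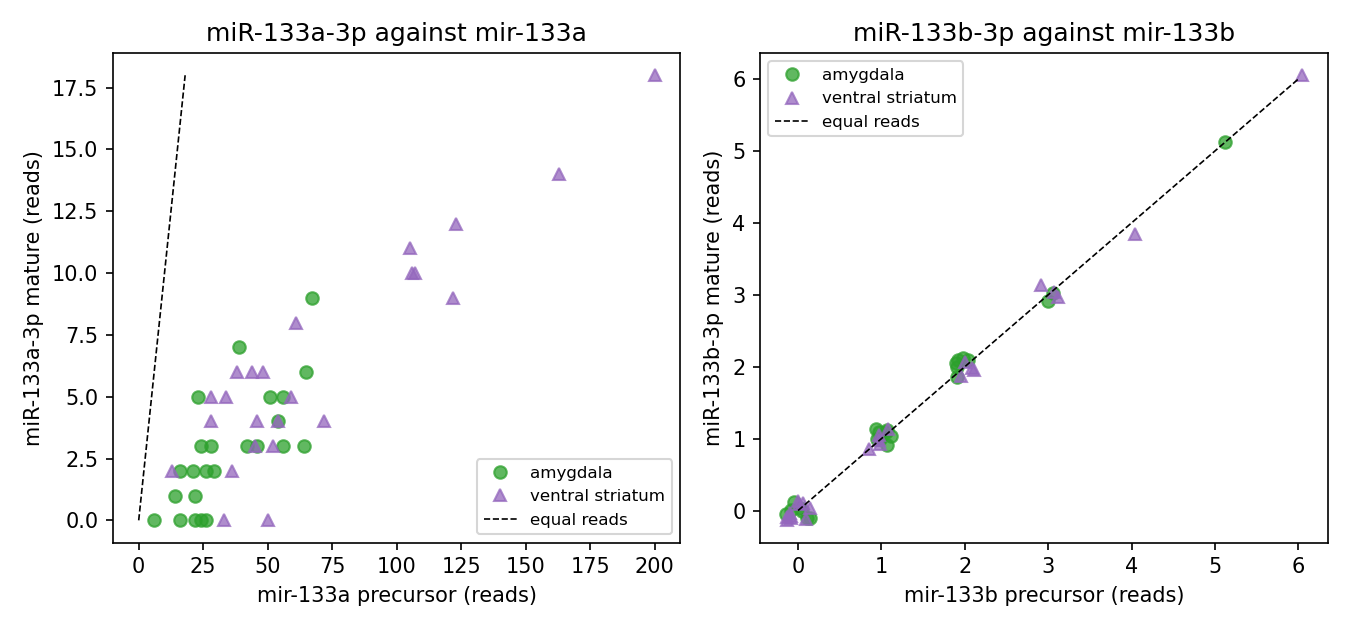
Reads of each mature form (y axis, reads per library) against reads of its precursor (x axis, reads per library) for miR-133a-3p on the left and miR-133b-3p on the right. Points are the 48 libraries, circles for amygdala and triangles for ventral striatum, and the dashed line marks equal reads. In the right plot, points are spread slightly so that overlaid libraries can be seen. miR-133a-3p stays far under the line at up to 18 reads against 200 of mir-133a, while miR-133b-3p lies on it.

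With the treatments pooled, no member differed between the regions after adjustment. mir-133a ran from 12.1 to 71.3 RPM in amygdala, with a median of 38.2 RPM, and from 12.3 to 144 RPM in ventral striatum, with a median of 46.2 RPM. miR-133a-3p had a mean of 3.58 ± 3.06 RPM in amygdala and 5.94 ± 3.81 RPM in ventral striatum (SD, n = 24 each). miR-206-3p lay the other way, at 2.37 ± 2.16 RPM in amygdala and 1.34 ± 1.73 RPM in ventral striatum. The ranges of the regions overlapped for each of these, with the highest mir-133a values in ventral striatum.

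The limma fit on log2(RPM + 1) gave a difference, ventral striatum minus amygdala, of 0.68 (95% interval 0.06 to 1.30, adjusted p = 0.0905) for miR-133a-3p and of 0.42 (-0.06 to 0.90, adjusted p = 0.192) for mir-133a. The difference was -0.45 (-0.93 to 0.02, adjusted p = 0.151) for miR-206-3p and -0.25 (-0.64 to 0.14, adjusted p = 0.35) for miR-133b-3p. By permutation of library labels, unadjusted p was 0.0224 for miR-133a-3p, 0.0215 for mir-133a, 0.074 for miR-206-3p and 0.387 for miR-133b-3p. For miR-133b-3p the pooled value averages opposite orders. Ventral striatum lay below amygdala in saline rats (permutation p = 0.00019) and above it in ethanol rats (permutation p = 0.0689), both unadjusted. None of the 6 members passed an adjusted p of 0.05, against 28.5% of the 968 names tested, and 1 member was higher in ventral striatum at an unadjusted p under 0.05, against 27.4% of names. miR-133a-3p passed, at 0.79 (limma adjusted p = 0.0421) or 0.80 (adjusted p = 0.0367), once the first female ethanol non-enriched pool of ventral striatum or of amygdala was left out. miR-206-3p passed, at -0.56 (limma adjusted p = 0.0494), without the first male ethanol non-enriched pool of amygdala.

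miR-133b-3p, with its precursor mir-133b, was the only member called for a difference between the regions in the ethanol effect. In the amygdala of saline rats its lowest, median and highest values were 0.857, 2.07 and 4.68 RPM, and it was read in 12 of 12 libraries. In the amygdala of ethanol rats the values were 0, 0 and 3.09 RPM, with a read in 5 of 12 libraries. In the ventral striatum the order was turned: saline libraries had 0, 0 and 2.49 RPM, with a read in 4 of 12, and ethanol libraries had 0, 1.97 and 4.88 RPM, with a read in 10 of 12. The values of saline and ethanol libraries overlapped in both regions. Only 3 of the 48 libraries held more than 3 reads of it, 1 of saline amygdala and 2 of ethanol ventral striatum. The other libraries with a read stayed within the 3 reads that a value of 0 allows.

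Amygdala had a mean of 2.20 ± 1.08 RPM with saline and of 0.999 ± 1.28 RPM with ethanol (SD, n = 12 each, 2-sided permutation of library labels, p = 0.0225). Ventral striatum had 0.454 ± 0.790 RPM with saline and 2.06 ± 1.43 RPM with ethanol (p = 0.00265, same permutation test). These p-values are 2 of 100 permutation tests made over 5 members and are not adjusted for that number.

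**Figure D2:**
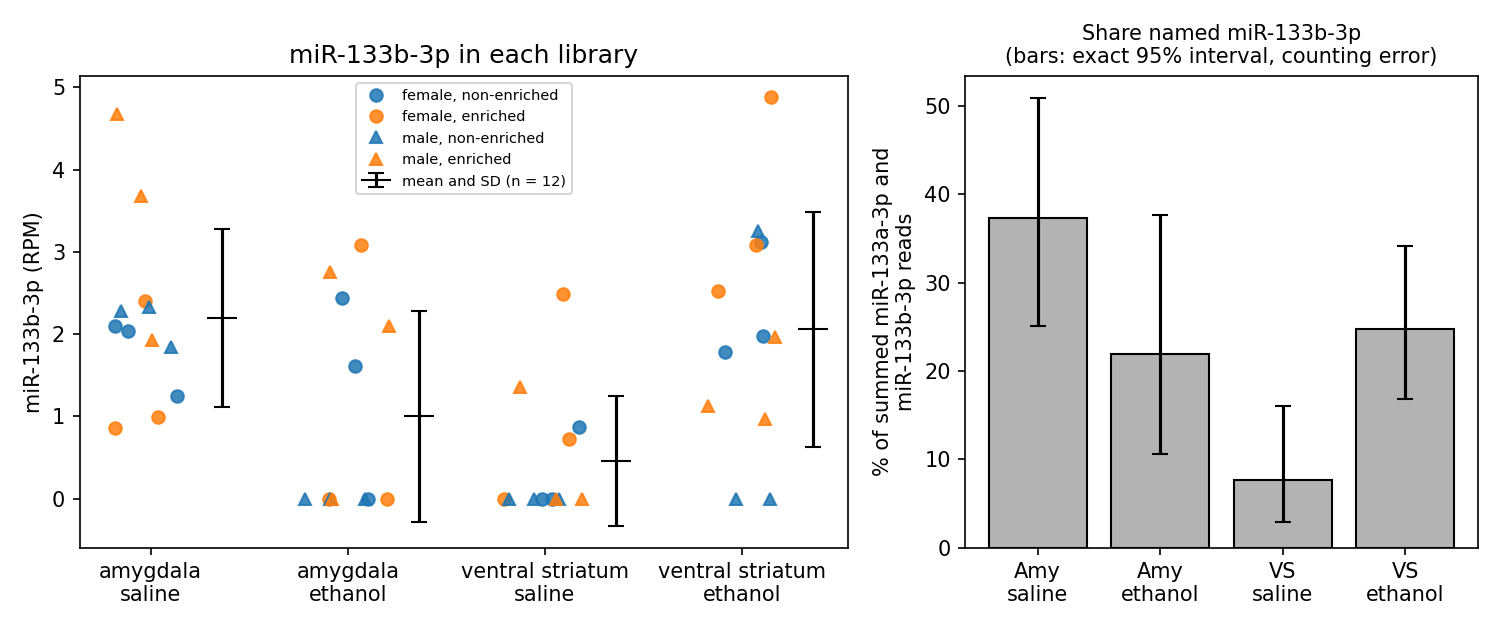
Left, miR-133b-3p (y axis, RPM) in the libraries of each region and prenatal treatment (x axis), with circles for females, triangles for males, blue for non-enriched and orange for enriched, and the mean and SD beside each group of 12. Right, the percentage of summed miR-133a-3p and miR-133b-3p reads named miR-133b-3p in the same groups (Amy, amygdala; VS, ventral striatum), with the exact 95% interval. The saline amygdala and ethanol ventral striatum groups sit near 2 RPM, and the other groups have medians of 0.

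The difference between the regions in the ethanol effect was tested on its own. In the limma fit of all 48 libraries, the ethanol difference of miR-133b-3p in ventral striatum exceeded that in amygdala by 1.92 on the log2(RPM + 1) scale (95% interval 1.14 to 2.70, adjusted p = 0.00959). The mir-133b precursor, which holds the same reads, gave 1.76 (1.04 to 2.48, adjusted p = 0.00959). A permutation of treatment labels within region, sex and housing gave p = 3e-05 and p = 4e-05 for the difference in mean RPM. Both tests take the libraries of the regions as separate although they share rats. With libraries of consecutive numbers as a random block, a pairing that the labels do not state, the adjusted p of limma was 0.00604. These 2 names, which are 1 measurement, were the only 2 called of 968 tested (0.207%), so that share holds nothing else. As the measurement entered the adjustment under both names, its adjusted p is lower than with 1 entry. The 2 miR-133b names were also the only members with an unadjusted p under 0.05 there, both higher in ventral striatum, where 1.65% of names were.

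The other members were not called there: 0.45 (-0.78 to 1.69) for miR-133a-3p, 0.48 (-0.48 to 1.44) for mir-133a and -0.03 (-0.98 to 0.92) for miR-206-3p, each with a limma adjusted p of 1. The intervals of miR-133a-3p and mir-133a overlap that of miR-133b-3p, and the members were not tested against each other. With 17 amygdala and 24 ventral striatum libraries of at least 600000 mature reads, a limit chosen after the data were seen, the miR-133b-3p difference was 1.81 and no longer passed (limma adjusted p = 0.187). Depth and group moved together in amygdala, where the median library held 891449 (saline non-enriched), 1023638 (saline enriched), 806858 (ethanol non-enriched) and 780741 mature reads (ethanol enriched). The part of depth in the result was not tested beyond this.

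Fitted within one region, the ethanol difference of miR-133b-3p did not pass adjustment. It was -0.88 in amygdala (-1.46 to -0.30, limma adjusted p = 0.548) and 1.04 in ventral striatum (0.50 to 1.58, adjusted p = 0.379). In both regions 0% of names (0 of 910 and 0 of 933) were called. In ventral striatum mir-133b and miR-133b-3p held ranks 1 and 2 by p among the 933 names. At an unadjusted p under 0.05, 2 of the 6 members were lower with ethanol in amygdala (both miR-133b names), against 3.19% of all names. In ventral striatum 3 were higher (these and miR-206-3p), against 1.71% of all names. The 2 miR-133b names are 1 measurement in each of these counts.

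Summed over libraries, the counts behind these means are small. Saline amygdala held 22 miR-133b-3p reads, or 2.13 per 1000000 mature reads (exact 95% Poisson interval 1.34 to 3.23), and ethanol amygdala held 9, or 1.01 per 1000000 (0.463 to 1.92). Saline ventral striatum held 6, or 0.459 per 1000000 (0.169 to 1.00), and ethanol ventral striatum held 26, or 2.13 per 1000000 (1.39 to 3.12). These intervals cover counting error only and not the spread between pools.

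Its seed partner miR-133a-3p, read from the same libraries, allows a comparison that does not depend on the scaling to library size. Of the reads given to either name, miR-133b-3p took 22 of 59 in saline amygdala, 37.3% (exact 95% binomial interval 25.04 to 50.85%), and 9 of 41 in ethanol amygdala, 21.95% (10.6 to 37.6%). In ventral striatum it took 6 of 78 with saline, 7.69% (2.88 to 15.99%), and 26 of 105 with ethanol, 24.8% (16.9 to 34.1%). These intervals pool the reads of 12 libraries and cover counting error only, not the spread between pools, and no test of the shares over libraries was made. The shares followed the same order as the RPM values. They do not give the part of miR-133b in all miR-133 reads. Mature names held 8.87% of the reads of mir-133a but 100% of those of mir-133b.

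Under each housing the means of miR-133b-3p lay in the same directions. In amygdala it went from 1.97 ± 0.395 RPM with saline to 0.675 ± 1.08 RPM with ethanol in non-enriched rats (n = 6 each, exact permutation p = 0.0325) and from 2.42 ± 1.51 to 1.32 ± 1.48 RPM in enriched rats (exact permutation p = 0.221). In ventral striatum it went from 0.145 ± 0.356 to 1.69 ± 1.44 RPM in non-enriched rats (exact permutation p = 0.0606) and from 0.762 ± 1.01 to 2.43 ± 1.45 RPM in enriched rats (exact permutation p = 0.039). With 6 against 6 libraries the smallest exact p is 0.00216. Ordered by mean, the 8 groups ran from saline non-enriched ventral striatum through ethanol amygdala and saline enriched ventral striatum up to saline enriched amygdala and ethanol enriched ventral striatum, and each neighbouring pair differed by less than the larger SD of the pair.

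None of these 4 contrasts was called for any member, with 0% of names called in each. At an unadjusted p under 0.05 (limma), the 2 miR-133b names were lower with ethanol in non-enriched amygdala, against 3.63% of names, and higher in non-enriched and in enriched ventral striatum, against 1.18% and 0.643% of names. No member had such a p in enriched amygdala, against 3.85% of names. The ethanol effect on miR-133b-3p did not differ detectably by housing, at 0.30 in amygdala (-0.86 to 1.47) and -0.01 in ventral striatum (-1.09 to 1.07), enriched minus non-enriched, each with a limma adjusted p of 1.

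By sex, the larger shifts of miR-133b-3p lay in males in amygdala and in females in ventral striatum. Male amygdala went from 2.79 ± 1.14 RPM with saline to 0.809 ± 1.27 RPM with ethanol (n = 6 each, exact permutation p = 0.0281), and female amygdala from 1.61 ± 0.654 to 1.19 ± 1.39 RPM (exact permutation p = 0.526). Female ventral striatum went from 0.682 ± 0.970 to 2.90 ± 1.12 RPM (exact permutation p = 0.00649), and male ventral striatum from 0.225 ± 0.552 to 1.22 ± 1.24 RPM (exact permutation p = 0.152). Whether the sexes differ was not tested. Over all libraries no member differed by sex, with 0% of 968 names called, no member at an unadjusted p under 0.05 (3.93% of names had one) and fitted male minus female differences of -0.27 to 0.14.

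**Figure D3:**
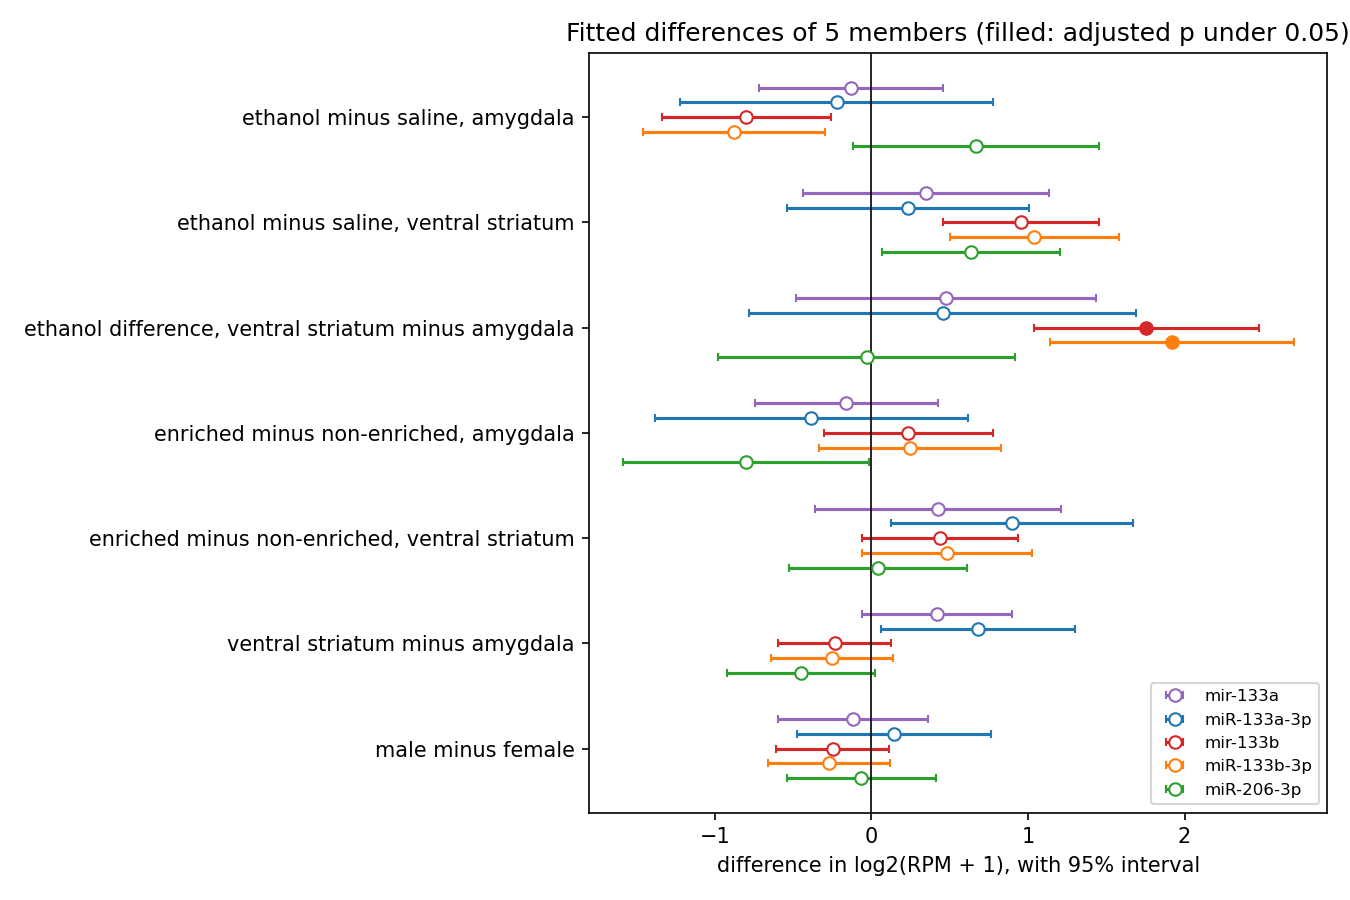
Fitted differences in log2(RPM + 1) (x axis) with 95% intervals for mir-133a, miR-133a-3p, mir-133b, miR-133b-3p and miR-206-3p in 7 comparisons (y axis), with filled points where the limma adjusted p was under 0.05. The 2 filled points are mir-133b at 1.76 and miR-133b-3p at 1.92 in the difference of ethanol effects between regions.

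miR-206-3p, which is transcribed beside miR-133b, had a higher mean with ethanol in both regions. In amygdala its lowest, median and highest values were 0, 1.35 and 4.998 RPM with saline and 0, 2.72 and 7.92 RPM with ethanol. In ventral striatum they were 0, 0.775 and 2.70 RPM with saline and 0, 1.20 and 7.90 RPM with ethanol. It was read in 7 of 12 saline and 10 of 12 ethanol libraries of each region.

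The miR-206-3p differences did not pass adjustment. Amygdala had 1.68 ± 1.81 RPM with saline and 3.06 ± 2.32 RPM with ethanol (permutation p = 0.117, fitted difference 0.67, -0.12 to 1.45, limma adjusted p = 0.848). Ventral striatum had 0.728 ± 0.824 and 1.96 ± 2.19 RPM (permutation p = 0.0581, fitted difference 0.64, 0.07 to 1.21, limma adjusted p = 1). The highest amygdala library was the third male ethanol non-enriched pool, with 9 reads. The highest ventral striatum library, with 7 reads, carries the same sex, treatment and replicate number. Their library numbers, 84 and 83, are consecutive, and whether they hold the same rats is not given. All 24 pairs of consecutive numbers share sex and treatment. Over these pairs, deviations of miR-206-3p from the group means correlated at r = -0.1 (permutation p = 0.64).

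For miR-133a-3p and mir-133a, the ethanol and saline libraries differed by less than their spread. miR-133a-3p was at 3.76 ± 2.92 RPM with saline and 3.41 ± 3.31 RPM with ethanol in amygdala (permutation p = 0.787), and at 5.51 ± 4.11 and 6.37 ± 3.61 RPM in ventral striatum (permutation p = 0.592). mir-133a was at 37.9 ± 9.98 and 38.1 ± 19.4 RPM in amygdala (permutation p = 0.978), and at 49.1 ± 34.5 and 62.5 ± 33.5 RPM in ventral striatum (permutation p = 0.35). The fitted differences were between -0.22 and 0.35 with limma adjusted p-values of 0.951 to 1. The intervals, of which the widest was -1.22 to 0.78 for miR-133a-3p in amygdala, leave room for sizeable differences in either direction.

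**Figure D4:**
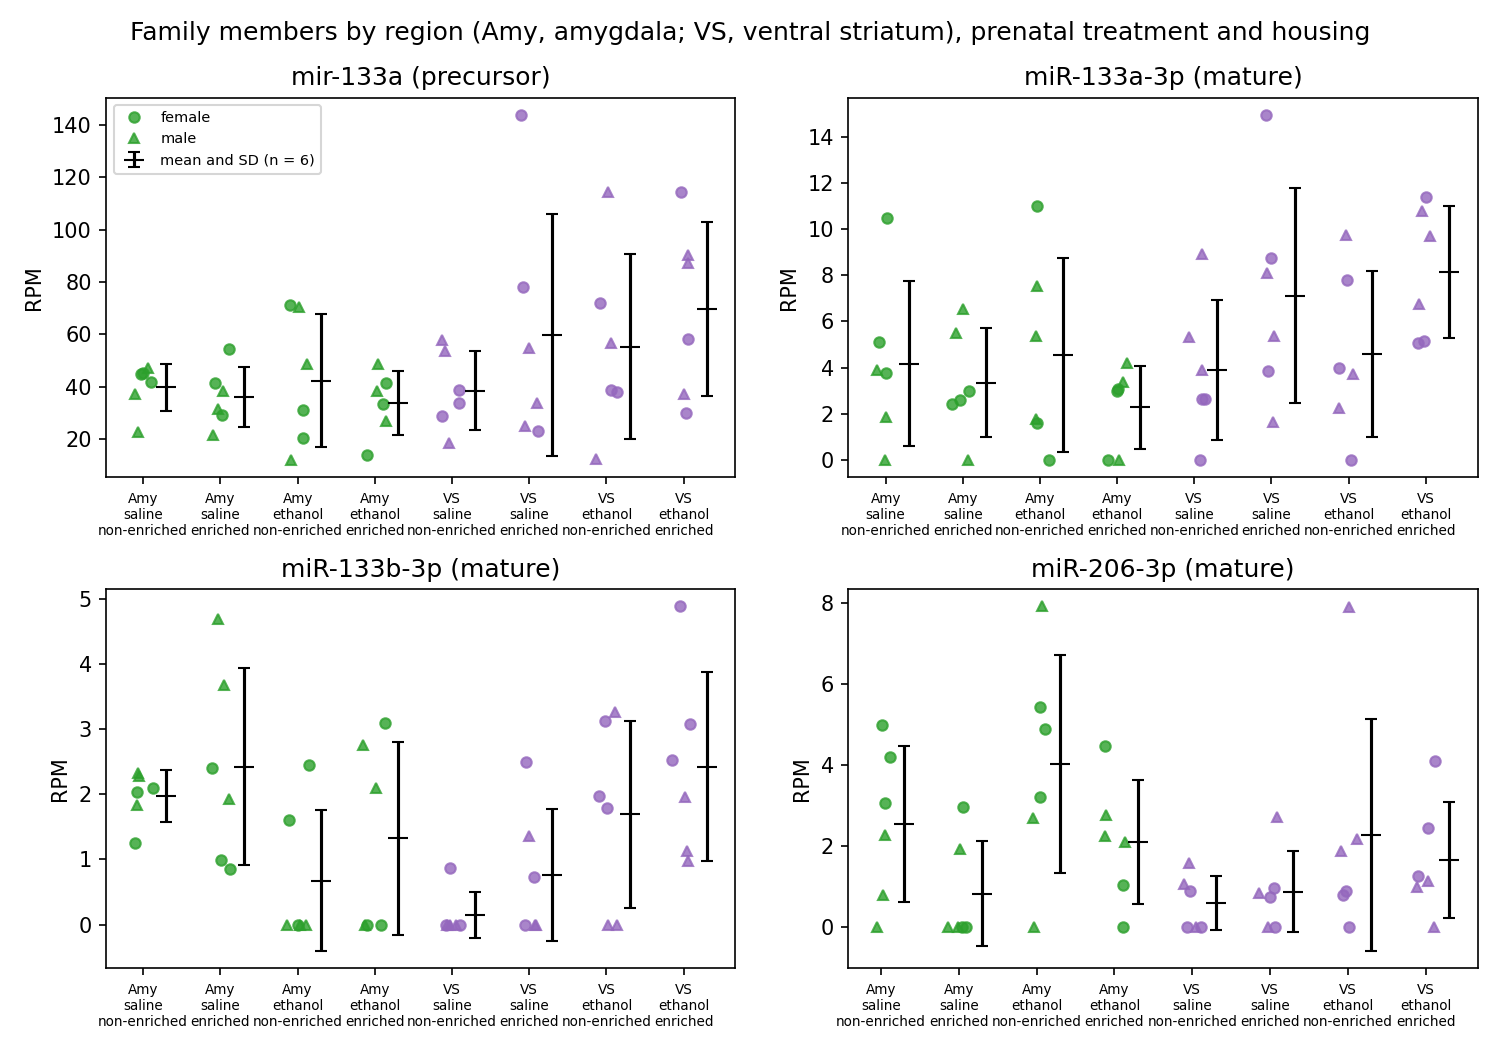
RPM (y axes) of mir-133a, miR-133a-3p, miR-133b-3p and miR-206-3p in the 8 groups of region, prenatal treatment and housing (x axes), with circles for females, triangles for males and the mean and SD of 6 libraries. mir-133a and miR-133a-3p reach their highest values (144 and 14.95 RPM) in the same library, the third female saline enriched pool of ventral striatum. In the miR-133b-3p plot the saline non-enriched libraries lie at 1.25 to 2.33 RPM in amygdala (1 to 3 reads). In ventral striatum they lie at 0 to 0.872 RPM (0 to 1 read), and this pair of groups was not tested. The pair was picked from the 8 groups, and how many names separate it likewise was not counted.

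Social enrichment went with higher miR-133a-3p in ventral striatum before adjustment. Non-enriched libraries had a lowest, median and highest value of 0, 3.82 and 9.77 RPM and enriched libraries of 1.64, 7.44 and 14.95 RPM. The means were 4.25 ± 3.19 and 7.63 ± 3.72 RPM (n = 12 each, permutation p = 0.0257), and the fitted difference was 0.90 (0.13 to 1.67, p = 0.0252, limma adjusted p = 1). Within saline rats the fitted difference was 0.81 and within ethanol rats 0.99. In amygdala miR-133a-3p lay the other way, at 4.36 ± 3.72 RPM in non-enriched and 2.80 ± 2.08 RPM in enriched rats (permutation p = 0.222).

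In amygdala, miR-206-3p was lower in enriched rats before adjustment. Its values were 0, 3.13 and 7.92 RPM in non-enriched and 0, 1.48 and 4.48 RPM in enriched rats, with means of 3.29 ± 2.37 and 1.46 ± 1.51 RPM (permutation p = 0.034, fitted difference -0.80, limma adjusted p = 1). In ventral striatum its means were 1.43 ± 2.17 and 1.26 ± 1.24 RPM (permutation p = 0.862). At an unadjusted p under 0.05, 1 member was lower with enrichment in amygdala, against 2.09% of 910 names, and 1 was higher in ventral striatum, against 1.71% of 933, and 0% of names were called in either region (limma).

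Within one prenatal treatment, housing gave no member an unadjusted p under 0.05 in either region, against 2.64% of names in amygdala of saline rats, 2.64% in amygdala of ethanol rats, 3.86% in ventral striatum of saline rats and 1.82% in ventral striatum of ethanol rats. The tests of ethanol by housing gave no member such a p either, against 3.85% of names in amygdala and 2.57% in ventral striatum, and 0% of names were called in these 6 comparisons (limma). In the comparisons of housing within a treatment, the fitted member differences lay between -0.997 and 0.99. Over the 17 comparisons, 16 called no member. In each pair of groups compared by permutation, the values of the groups overlapped.

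The relatives of the family were counted as a list of 21 muscle-type names, of which 13 were in the table. miR-1b, a seed mate of miR-206-3p, was read in all 48 libraries at 2.90 to 45.7 RPM, with means of 17.7 RPM in amygdala and 22.04 RPM in ventral striatum. miR-1-3p was read in 20 libraries at up to 2.94 RPM. miR-499-5p, encoded within a myosin gene, was at 24.03 to 90.9 RPM.

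Of the 12 listed relatives tested between regions, 2 were called lower in ventral striatum, miR-499-5p (-0.37, limma adjusted p = 0.00252) and its precursor mir-499 (-0.38, adjusted p = 0.00252), against 8.16% of all names called lower. The median difference of the list was 0.06, against 0.08 over all names. In the difference of ethanol effects between regions none of the 12 was called and 1, mir-208b, had an unadjusted p under 0.05 (limma), with a list median of 0.01 against 0.05 over all names. mir-206, the precursor of miR-206-3p, differed by -0.07 in that comparison.

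Marker lists of other cell types were read beside these results. The choroid plexus list, 3 mature forms including miR-204-5p, summed to 3127 to 32030 RPM in saline amygdala (median 8370) and to 3529 to 122700 RPM in ethanol amygdala (median 19920), and to 3842 to 6998 RPM in ventral striatum. None of its 3 mature forms was at 0 in every library. Without the 2 ethanol amygdala libraries over 100000 RPM, a limit chosen after the data were seen, the miR-133b-3p difference of ethanol effects was 1.96 (limma adjusted p = 0.0182) and the same 2 names were called.

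The vascular smooth muscle and pericyte list had medians of 32600 RPM in saline and 28990 RPM in ethanol amygdala, and of 28600 and 30330 RPM in ventral striatum. The red blood cell list had medians of 25.4 to 28.6 RPM over the 4 groups of region and prenatal treatment, and the mesenchyme list of 42.2 to 45.3 RPM. None of the names in these 3 lists was called in the comparison of ethanol effects between regions. Only 0.207% of the 968 names were called there, all of them miR-133b names. Mesenchymal miR-214-3p (-0.54) and miR-126a-3p of the endothelium list (0.21) had an unadjusted p under 0.05 in it (limma). No other name of these lists did. The part of these cell types in the result was not tested.

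Among 589 non-member names with a mean of at least 10 RPM, the names most like each mature member were found by the correlation of log2(RPM + 1) over 48 libraries after the group means of region, sex and treatment were subtracted. All points share library depth, and no test was made. For miR-133a-3p the closest were mir-10b (r = 0.598), mir-450a (0.58), miR-450a-5p (0.571), mir-28 (0.565) and mir-21 (0.548). For miR-133b-3p they were miR-199a-3p (r = 0.576), mir-93 (0.566), mir-199a (0.56), miR-93-5p (0.557) and mir-27b (0.547). For miR-206-3p they were miR-493-5p (r = 0.506), miR-124-5p (0.431), miR-211-5p (0.414), mir-211 (0.388) and miR-30c-5p (0.374). The member mir-133a correlated with miR-133a-3p at 0.611, with miR-133b-3p at 0.589 and with miR-206-3p at -0.287. Without the 2 libraries farthest from the median, the miR-206-3p values in the same order became 0.503, 0.351, 0.21, 0.176 and 0.38, and -0.138 for mir-133a. For the non-members closest to miR-133a-3p and miR-133b-3p, r then lay at 0.476 to 0.607.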

How the data were processed

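Small RNA-seq libraries of pooled RNA (3 rats of one sex per pool) from amygdala and ventral striatum were used as deposited. The authors trimmed bases under Phred 20, aligned reads with Bowtie to Rn5, quantified mature and precursor forms of miRBase 21 in Partek Flow and scaled them to RPM; versions are not given in the sources used here. The deposited values form a normalized signal in RPM, in which mature and precursor values each add up to 1000000 per library. Of the 1129 lines, 122 shared 56 names and were summed to 1063 names (612 mature, 451 precursor).

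Samples were grouped by the labels. The worth of 1 read was recovered from the steps of low values, and 91.0 to 99.5% of mature and 87.4 to 93.3% of precursor values were then whole within 0.05 read. Because precursor values were less often whole, no count model was used. Names above 0 RPM in at least 6 libraries were fitted with limma 3.58.1 (R 4.3.3) on log2(RPM + 1) with a mean for each cell of sex, prenatal treatment and housing (8 cells per region, 16 over both regions), moderated variances with a trend, 2-sided tests and Benjamini-Hochberg adjustment over all names. The filter also keeps names far below 1 read, such as mir-133c, and these count in the shares over all names. A fold change on the log2(RPM + 1) scale understates the change of low names. Called means an adjusted p under 0.05. Single members were also compared by permutation of mean RPM (numpy 2.4.6), exact for 6 against 6 libraries (924 splits) and with 100000 resamples otherwise. The procedure was tested on simulated data with changes placed only in names of higher mean than the mature members. That test therefore does not cover counts as low as theirs. The members, the muscle-type list and the marker lists were chosen with earlier results of these data known. Named relatives were the muscle-type list and the 5 non-members closest to each mature member in within-group correlation. Alternatives were other pseudocounts, filters, scaling, blocks and libraries. The labels name no sequencing batch. No sequence is printed for mir-133c. Nothing says that pools of one group came from separate litters, so p-values measure the spread between these pools.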

Additional observations from a re-analysis of the deposited data

Results flagged for a closer look

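The difference between regions in the ethanol effect stood out for miR-133b-3p, at 1.92 on the log2(RPM + 1) scale, and for mir-133b, at 1.76, since the test of the difference itself passed in each case; the names hold the same reads.

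Of 40 sets of 6 libraries tested for a value far from the rest, 4 were singled out. The usual chance rate of about 1 in 20 presumes continuous values and does not hold for sets of few reads. A set with a read in only 1 library is always singled out. In saline non-enriched ventral striatum the first female pool was the only library with a read, at 0.872 RPM of miR-133b-3p and 0.743 RPM of mir-133b, with the others at 0. Both flags are the same 1 read. miR-206-3p was at 2.70 RPM in the second male saline enriched pool of ventral striatum, against 0.967 RPM in the next library. It was at 7.90 RPM in the third male ethanol non-enriched pool of ventral striatum, against 2.17 RPM in the next.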

How the results depend on the processing

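The number of members called was the same as reported in 179 of 181 alternatives other than leaving out a library. Of the 17 comparisons, 16 called no member and so had no call to lose. In the difference of ethanol effects between regions, the number was the same in 9 of 11 alternatives. There it fell from 2 to 0 when only names with a mean of at least 10 RPM were kept, since that filter removes both miR-133b names. It also fell to 0 with libraries of at least 600000 mature reads, where fewer libraries enter (miR-133b-3p 1.81, mir-133b 1.65, limma adjusted p = 0.187). When each of the 48 libraries was left out in turn, 2 members were called in that comparison each time (miR-133b-3p 1.75 to 2.09, limma adjusted p = 0.000814 to 0.0214), and 0 to 1 in ventral striatum against amygdala. With the replicate number as a block, miR-133b-3p kept 1.92 (limma adjusted p = 0.0147). The labels do not say that the numbers pair pools. Same-numbered pools of a region had median correlations of -0.0547 and 0.0285, and the block changed no call. Since the regions share rats, libraries of consecutive numbers were also taken as a random block (adjusted p = 0.00604), and no call changed in that comparison or between regions; the labels do not state this pairing.

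None of the differences that turned sign had passed the threshold. They were miR-206-3p under housing in ventral striatum (-0.00938 with pseudocount 10, -0.165 RPM unlogged, -0.0792 to 0.173 with a library left out) and in the difference of ethanol effects (-0.24 to 0.154 with a library left out, 0.109 without the choroid plexus rich libraries). mir-133a turned for ethanol in amygdala (0.171 RPM unlogged, 0.0803 without the choroid plexus rich libraries, -0.252 to 0.0546 with a library left out) and for housing in amygdala (0.0646 with at least 600000 reads). With that read limit miR-133a-3p turned for ethanol in amygdala (0.126) and miR-133b-3p for housing in saline amygdala (-0.0177, and -0.0409 to 0.233 with a library left out). The cause was not tested. Depth limits the mature members to 0 to 18 reads per library.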
